A study of Mus musculus with 9 samples.

Results

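The comparison described here set AML12 mouse hepatocytes treated with osteocyte vesicles carrying a control antagomir against AML12 cells given vehicle, with 3 RNA-seq libraries in each group. All genes with enough counts were taken, which gave 11562 tested genes of 21959 listed, and 6 of the 9 libraries of the series. AML12 is a hepatocyte line from the liver of a mouse that carried a transforming growth factor alpha transgene. Every group was kept under free fatty acid (FFA) conditions. The vehicle group (Veh) received phosphate-buffered saline. The group OCY-EV+ANTA-NC received extracellular vesicles of aged osteocytes at 2 µg/ml, after 30 min of incubation with a control antagomir, a modified oligonucleotide directed at no particular microRNA. The remaining 3 libraries, OCY-EV+ANTA, received vesicles likewise incubated, but with an antagomir to miR-483-5p, and their levels are set beside the others without a test. No group received vesicles without antagomir or the control antagomir without vesicles, so what the vesicles did and what the control antagomir did cannot be told apart. The step after the incubation is ultracentrifugation in one label and ultrafiltration in another. Whether libraries of one group were separate cultures is not stated in the labels. The p-values therefore rest on a spread between libraries that may be technical.

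Of the classes examined, the one with most calls belongs to the machinery that cuts introns out of messenger RNA precursors. The lists were written with earlier results of these data known, so this ranking of classes is not independent of those results. SR proteins are RNA-binding splicing factors with a domain rich in serine and arginine. They bind exons and recruit the spliceosome, and the CLK and SRPK kinases phosphorylate that domain. The messenger RNAs of many SR proteins carry poison exons or retained introns, so that their levels respond to splicing itself. Ribosomal proteins and elongation factors, which hold most of the lower calls that belong to a list, are encoded by short and very abundant messenger RNAs whose translation follows nutrient signals. The list with the elongation factors was chosen after values were seen, so its share of the lower calls was partly set by that choice.

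The microRNA whose antagomir defines the third group is shown because its seed was used below to ask whether predicted targets moved. Mature mouse miR-483-5p comes from chr7:142654968-142654989 on the minus strand, within the Igf2 locus, in RefSeq on GRCm38.p6. The seed, bases 2 to 8, is in capitals.
mmu-miR-483-5p: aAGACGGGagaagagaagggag

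Of the SR protein genes called higher, Srsf1, Srsf2 and Srsf5 are shown by the 150 bases before their start sites, because they rose together. The sequences are RefSeq's, on GRCm38.p6, from chr11:88047223-88047372 (plus strand), chr11:116853095-116853244 (minus strand) and chr12:80945349-80945498 (plus strand). Capitals mark 5 motifs searched on both strands: the GC box GGGCGG, the CCAAT box CCAAT, the ETS core CCGGAAG, the TATA box TATAAA and the CHR element TTTGAA. In the Srsf5 window a GC box runs straight into an ETS core.
Srsf1: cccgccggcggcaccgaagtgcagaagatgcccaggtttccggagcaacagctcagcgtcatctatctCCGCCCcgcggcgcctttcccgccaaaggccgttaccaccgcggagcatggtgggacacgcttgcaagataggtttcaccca
Srsf2: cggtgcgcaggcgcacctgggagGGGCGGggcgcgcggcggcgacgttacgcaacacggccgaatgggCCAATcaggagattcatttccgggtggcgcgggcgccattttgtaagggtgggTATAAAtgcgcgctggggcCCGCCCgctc
Srsf5: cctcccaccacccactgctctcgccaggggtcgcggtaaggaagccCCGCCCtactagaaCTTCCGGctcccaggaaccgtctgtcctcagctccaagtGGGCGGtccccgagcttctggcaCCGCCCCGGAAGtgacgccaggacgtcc

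Expression is given as CPM, each gene's counts scaled to a common library total with edgeR's TMM factors. Fold changes are log2(OCY-EV+ANTA-NC over Veh) with standard errors (SE), and calls were made by edgeR's quasi-likelihood test where the adjusted p (Benjamini-Hochberg, over all 11562 genes) was under 0.05. Total counts were 17435514 to 21737643 per library. Libraries of one group differed by more than counting noise, with a chi-square per gene of 2.17 to 4.46, where sampling alone gives about the value 1. Hnf4a, a transcription factor of hepatocytes, lay at 56.4 to 66.1 CPM and Krt19, a keratin of bile duct cells, at 2323 to 2571 CPM. Other hepatocyte markers were low, with Alb at 4.38 to 7.21 CPM, Ttr at 1.39 to 2.33 CPM and Cps1 at 0.0534 to 0.38 CPM. No library of the 6 held more than 1 count of Cyp2e1, which marks mature hepatocytes. Of 7 osteocyte markers, Sost, Dmp1, Dkk1 and Pdpn were at 0 in all 6, and the 7 summed to at most 0.416 CPM in Veh and 0.488 CPM in OCY-EV+ANTA-NC. The 7 bile duct markers, 5 of them tested and Epcam at 0, summed to 3960 to 4030 CPM in Veh and 3670 to 3850 CPM in OCY-EV+ANTA-NC, and their part in the results was not tested. No gene of the marker lists for other cell types was called.

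In all, 118 genes were called, 1.02% of those tested, of which 94 (0.813%) were higher and 24 (0.208%) were lower in OCY-EV+ANTA-NC. The changes were small, with a median absolute log2 fold change of 0.26 among the called genes and a range from -0.27 to 0.81. With library size alone in place of TMM, 157 genes were higher and 6 lower. The lower calls fell to between 2 and 7 without any 1 of the 6 libraries compared, and the higher calls to 40 without Veh 3 and to 43 without Veh 2 or OCY-EV+ANTA-NC 3. In every called gene the libraries of both groups were separate. Complete separation was itself common: 8.99% of all tested genes had their 3 OCY-EV+ANTA-NC libraries above the 3 Veh libraries, and 10.3% had them below. The 94 higher genes included 21 members of the RNA processing lists and 65 genes of no list, and the 24 lower ones included 7 of no list. The list of elongation factors and similar messenger RNAs, chosen after values were seen, counts as a list here.

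SR protein genes held several of the higher calls. Of 10 tested, 4 were called higher (Srsf1, Srsf2, Srsf5 and Srsf10) and 0 lower, where 0.813% of all tested genes were called higher. In 8 of them OCY-EV+ANTA-NC lay wholly above Veh, as in 8.99% of all tested genes. The median log2 fold change was 0.192 against -0.005 for all genes. Srsf1, which guides the choice of splice sites (chromosome 11, 88047373 to 88053755, plus strand, GRCm38), stood at 172, 148 and 159 CPM in Veh 1 to 3 and at 236, 205 and 225 CPM in OCY-EV+ANTA-NC 1 to 3. The lowest vesicle-treated library was above the highest vehicle one, and the log2 fold change was 0.48 (SE 0.072, adjusted p = 0.00122). Srsf5, an activator of exon inclusion, stood at 365, 396 and 401 CPM in Veh and at 485, 489 and 502 CPM in OCY-EV+ANTA-NC, and the log2 fold change was 0.34 (SE 0.043, adjusted p = 0.000234).

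Srsf10, a splicing factor regulated by dephosphorylation, was among the most even. Its Veh libraries held 211, 213 and 217 CPM and its OCY-EV+ANTA-NC libraries 268, 265 and 266 CPM (log2 fold change 0.32, SE 0.038, adjusted p = 0.000143). Srsf2, a factor of constitutive and alternative splicing, went from 60.3, 65.9 and 64.0 CPM to 79.5, 81.3 and 78.3 CPM (log2 fold change 0.33, SE 0.047, adjusted p = 0.000837). A share of 25.3% of its exon bases overlaps a gene on the opposite strand, and the strand setting of the counting is not given in the sources used here, so Srsf2 is uncertain. All 4 genes stayed called with the GC and length trend removed and without any single library.

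The other 6 SR protein genes missed the threshold. Srsf11 (log2 fold change 0.18, adjusted p = 0.0534), Srsf7 (0.20, adjusted p = 0.0805), Srsf3 (0.14, adjusted p = 0.0880) and Srsf6 (0.14, adjusted p = 0.119) each had all OCY-EV+ANTA-NC libraries above all Veh libraries. Srsf9 (-0.02) and Srsf4 (-0.06) had overlapping groups. Srsf4 stood at 6.56 to 7.64 CPM in the 6 libraries, and 43.0% of its exon bases overlap a gene on the opposite strand.

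SR-related splicing genes, which share the serine and arginine rich domain or act with SR proteins, held more. Of 27 tested, 11 were called higher and 0 lower, at a median of 0.197, where 0.813% of all tested genes were called higher. Luc7l3, a partner of the U1 snRNP that marks the start of introns, had the largest change in the list (chromosome 11, 94287890 to 94321988, minus strand). It stood at 248, 196 and 199 CPM in Veh and at 357, 262 and 308 CPM in OCY-EV+ANTA-NC (log2 fold change 0.53, SE 0.097, adjusted p = 0.00884). The library numbered 1 was the highest in both groups, and the call ended without Veh 2 or Veh 3. Its relative Luc7l2 went from 234, 229 and 233 CPM to 281, 290 and 301 CPM (log2 fold change 0.32, SE 0.046, adjusted p = 0.000776). An exon overlap on the opposite strand covers 18.9% of Luc7l2.

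Rsrp1, a little studied gene of the serine and arginine rich class, had one of the smallest p-values of the comparison. Its levels were 174, 169 and 179 CPM in Veh and 242, 221 and 232 CPM in OCY-EV+ANTA-NC (log2 fold change 0.41, SE 0.045, adjusted p = 8.1e-05). Arglu1, a nuclear receptor coactivator with a role in splicing, went from 138, 137 and 140 CPM to 188, 174 and 187 CPM (log2 fold change 0.40, SE 0.047, adjusted p = 0.000143). Pnisr, a nuclear speckle protein, went from 104, 95.0 and 99.7 CPM to 129, 128 and 140 CPM (log2 fold change 0.41, SE 0.063, adjusted p = 0.00151). The groups of all 3 genes were separate, and these calls held without any single library and with the GC and length trend removed.

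Among the remaining called members, Srek1 (0.32) and Tra2a (0.28), both regulators of exon choice, also held with the GC and length trend removed. Ccnl1 (0.28) and Ccnl2 (0.25), the L-type cyclins of splicing kinases, Prpf4b (0.24), a spliceosomal kinase, and Bclaf1 (0.21) did not. Each of these 4 lost its call without certain single libraries: Ccnl1 and Prpf4b without Veh 2, Veh 3 or OCY-EV+ANTA-NC 3, Bclaf1 without Veh 1 or OCY-EV+ANTA-NC 3, and Ccnl2 without any of Veh 1 to 3, OCY-EV+ANTA-NC 2 or 3 or OCY-EV+ANTA 2.

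Other members were not called. Scaffold genes of nuclear speckles gave 0.12 for Son (adjusted p = 0.189) and 0.19 for Srrm2 (adjusted p = 0.297). Srrm1, Scaf11, Snrnp70, Thrap3 and Acin1 lay between 0.01 and 0.05 with overlapping groups. Rsrc1 gave -0.09 (adjusted p = 0.366), and its OCY-EV+ANTA-NC libraries were all below Veh.

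**Figure D1:**
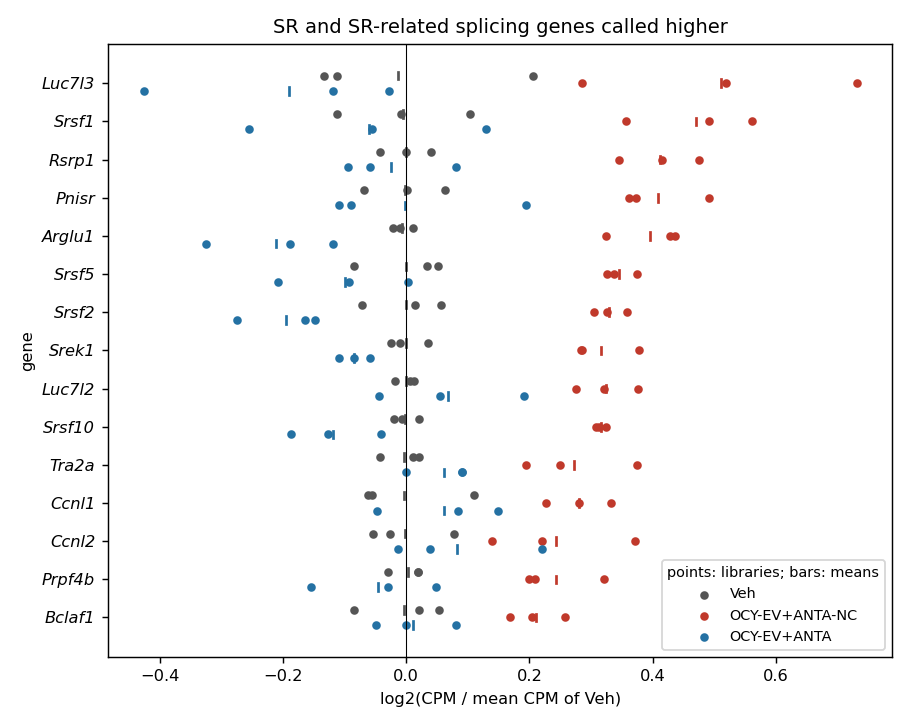
CPM of the 15 called SR and SR-related genes in each library, as log2 of the ratio to the mean of Veh (x axis, by gene on the y axis). Points are libraries and bars are means of 3. The OCY-EV+ANTA-NC libraries lie to the right of all Veh libraries in each gene, and the OCY-EV+ANTA libraries, shown without a test, lie mostly near or to the left of Veh.

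Of all tested genes 0.813% were called higher and 8.99% had OCY-EV+ANTA-NC wholly above Veh. Counted once each, the 37 tested SR and SR-related genes held 15 calls, all higher. Of these 37 genes 25 had OCY-EV+ANTA-NC wholly above Veh, and the median was 0.197. Without any single library the calls among them numbered 11 to 19, all higher, and with the libraries numbered 2 and 3 alone, an alternative added after seeing the data, 19. Their summed level was 5423, 5443 and 5547 CPM in Veh, 6329, 6236 and 6542 CPM in OCY-EV+ANTA-NC, and 5197, 5316 and 5754 CPM in OCY-EV+ANTA. Luc7l3 in OCY-EV+ANTA was at 198, 160 and 211 CPM and Srsf1 at 154, 134 and 175 CPM, values that overlap those of Veh. The OCY-EV+ANTA libraries lay wholly below Veh in Arglu1, Srsf2, Srsf10 and Srek1, and overlapped Veh in the other called members. These OCY-EV+ANTA values were not compared with the control-antagomir group by a test here.

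The kinases of SR proteins gave no call among 8 tested, at a median of 0.13. Srpk2 (0.18, adjusted p = 0.0684) and Srpk1 (0.13, adjusted p = 0.120) had separate groups, whereas Clk1 (0.34, SE 0.160, adjusted p = 0.347) and Clk4 (0.24, SE 0.086, adjusted p = 0.189) varied more between libraries and their groups overlapped. The summed level of the 8 genes was 627, 530 and 547 CPM in Veh and 722, 581 and 639 CPM in OCY-EV+ANTA-NC. The library numbered 1 was highest in both groups.

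Other RNA-binding classes held fewer calls, where 0.813% of all tested genes were called higher. Among 20 hnRNP genes, which package nascent transcripts, Hnrnph1 (0.29, adjusted p = 0.00826) and Hnrnpa2b1 (0.19, adjusted p = 0.00334) were called higher, at a median of 0.059, and Hnrnph1 lost its call with the GC and length trend removed. Of 36 RBM genes, Rbm25 (0.27, adjusted p = 0.00108), Rbm39 (0.22, adjusted p = 0.00976) and Rbm26 (0.19, adjusted p = 0.0453) were called higher, at a median of 0.051. Rbm39 lost its call without Veh 1 or OCY-EV+ANTA-NC 3, and Rbm26 without any of the 6 libraries compared, and both lost it with the GC and length trend removed. In the core spliceosome 1 of 32 genes was called. That gene was Sf3b1, which binds the branch point with the U2 snRNP, at 752, 732 and 733 CPM in Veh and 805, 828 and 844 CPM in OCY-EV+ANTA-NC (log2 fold change 0.16, SE 0.030, adjusted p = 0.00908). It lost the call without Veh 2, Veh 3 or OCY-EV+ANTA-NC 3, and with the GC and length trend removed. The median of this class was -0.048, and 21 of its 32 genes had a negative fold change. Nonsense-mediated decay (15 tested) and cleavage and polyadenylation (17 tested) held no call.

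Among the lists, those of translation held most of the lower calls, although glycolysis genes, given below, had nearly the same median (-0.075). Of all tested genes 0.208% were called lower and 10.3% had OCY-EV+ANTA-NC wholly below Veh. Of 80 cytosolic ribosomal protein genes, 8 were called lower and 0 higher, 42 had OCY-EV+ANTA-NC wholly below Veh, and the median was -0.076. With the library number as a term in the fit, 26 were called lower. Rpl4, a large-subunit protein (chromosome 9), stood at 2389, 2396 and 2396 CPM in Veh and at 2211, 2238 and 2240 CPM in OCY-EV+ANTA-NC (log2 fold change -0.10, SE 0.022, adjusted p = 0.0280). Rpl39, a small protein of the exit tunnel, went from 433, 485 and 414 CPM to 395, 385 and 391 CPM (log2 fold change -0.19, SE 0.042, adjusted p = 0.0311). Rpl28 and Rpl18 each fell by 0.13 on the log2 scale. The remaining calls were Rpl14, Rpl41, Rps2 and Rps16, at -0.12 to -0.24. With the GC and length trend removed, Rpl4 and Rpl39 kept their calls and the other 6 lost them. The class kept 0 lower calls with library size alone or without Veh 2 or OCY-EV+ANTA-NC 2, 1 without Veh 1, OCY-EV+ANTA-NC 1 or OCY-EV+ANTA-NC 3, and 2 without Veh 3, while its median lay between -0.093 and -0.050 in these fits. Ribosomal protein genes have many processed copies, so their counts are uncertain where reads match several places.

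With TMM scaling, the summed level of the class was lower in all 3 OCY-EV+ANTA-NC libraries than in any Veh library. It was 56065, 56916 and 55250 CPM in Veh and 54292, 53133 and 52696 CPM in OCY-EV+ANTA-NC. In OCY-EV+ANTA it was 57888, 57977 and 56316 CPM. The separation depends on the TMM factors, which were 0.9952 to 0.9989 in Veh and 1.01 to 1.015 in OCY-EV+ANTA-NC. Scaled by library size alone, the sums of these groups overlap. The list of elongation factors and similar messenger RNAs, chosen after values were seen, held 3 lower calls among 12 genes. They were Eef1a1, which delivers transfer RNA to the ribosome, Eef2, which drives translocation, and Tpt1. Eef1a1 stood at 14792, 14522 and 14940 CPM in Veh and at 13797, 13887 and 13854 CPM in OCY-EV+ANTA-NC (log2 fold change -0.09, SE 0.020, adjusted p = 0.0300). Its call ended without any of the 6 libraries compared, but it held with the GC and length trend removed. The calls of Eef2 and Tpt1 did not hold with that trend removed, nor without Veh 1, Veh 2 or OCY-EV+ANTA-NC 2 or 3, and that of Eef2 also ended without Veh 3. Among 51 initiation factors Eif3g (-0.20) and Eif3d (-0.16) were called lower, both were lost without any of the 6 libraries compared (Eif3d also without OCY-EV+ANTA 2 or 3) and with the GC and length trend removed, and 43.3% of the exon bases of Eif3d overlap a gene on the opposite strand. Mitochondrial ribosomal proteins (77 tested, median -0.039) and aminoacyl-tRNA synthetases (20 tested, median -0.031) held no call.

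**Figure D2:**
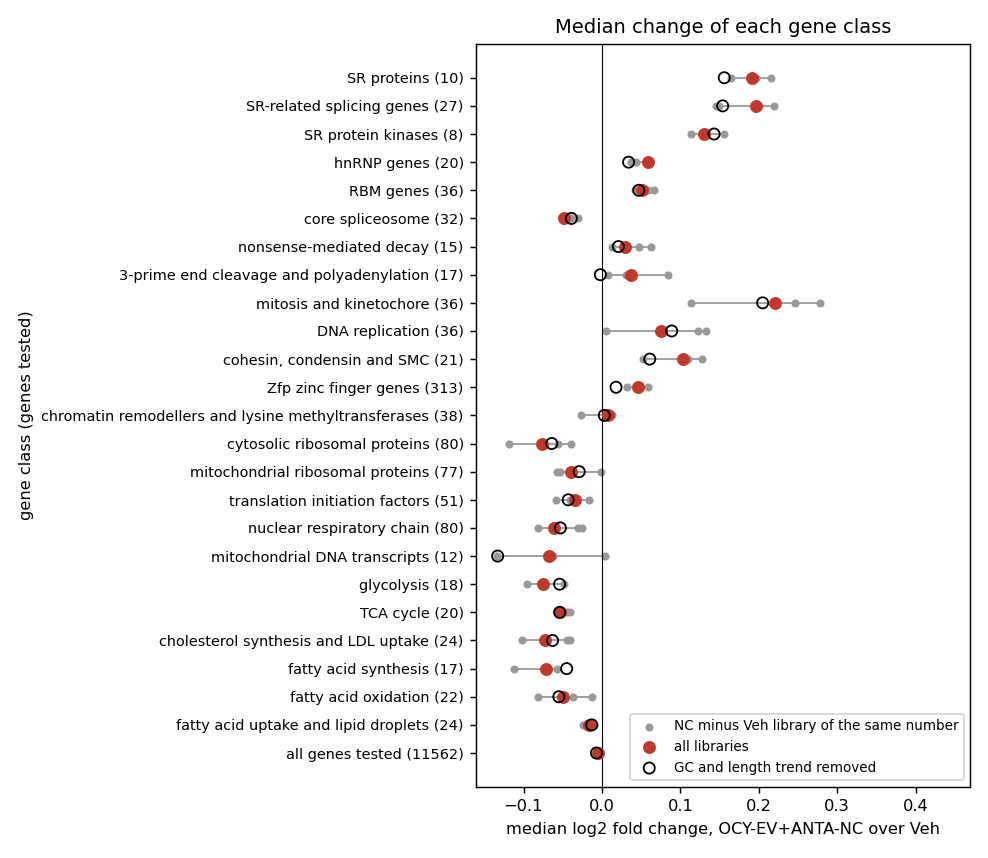
Median log2 fold change of 25 gene classes, with the number of tested genes in brackets. Filled red points come from the fit of all libraries, open circles from the fit with the GC and length trend removed, and grey points are the medians of the differences between libraries of the same number, joined by a line over their range. Mitosis genes at 0.221, SR-related genes at 0.197 and SR proteins at 0.192 lie farthest to the right, and ribosomal proteins lie at -0.076.

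Genes of mitosis and the kinetochore had a median of 0.221, and 1 of 36 was called, or 18 with the library number as a term in the fit. The median was 0.118 without OCY-EV+ANTA-NC 1. Knl1, a scaffold of the outer kinetochore, stood at 17.1, 16.7 and 15 CPM in Veh and at 27.5, 21.3 and 21.2 CPM in OCY-EV+ANTA-NC (log2 fold change 0.51, SE 0.098, adjusted p = 0.00993). Its call ended without Veh 3 or OCY-EV+ANTA-NC 1. Without single libraries the list held 0 to 6 calls, 0 of them without Veh 3 or without OCY-EV+ANTA-NC 1. In this list 34 of 36 genes had a positive fold change, and 10 had OCY-EV+ANTA-NC wholly above Veh, as 8.99% of all tested genes did. Aspm (0.36, adjusted p = 0.0561), Mad2l1 (0.23, adjusted p = 0.0680), Cenpe (0.27, adjusted p = 0.0697) and Cdk1 (0.21, adjusted p = 0.0812) missed the threshold. They were named after their values were seen. The summed level was 1347, 1222 and 1158 CPM in Veh and 1617, 1316 and 1387 CPM in OCY-EV+ANTA-NC, so that the groups overlapped. The library numbered 1 was the highest in each of the 3 groups, OCY-EV+ANTA included (1519, 1360 and 1406 CPM).

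DNA replication genes had 1 call among 36, Prim1 (0.50, adjusted p = 0.0342), which was lost without any of the 6 libraries compared and with the GC and length trend removed. Cohesin, condensin and related genes had 1 among 21, Smc5 (0.27, adjusted p = 0.00241), a subunit of a DNA repair complex, at 697, 686 and 681 CPM in Veh and 802, 833 and 862 CPM in OCY-EV+ANTA-NC. Among 38 chromatin regulators Brd9 (0.42, adjusted p = 0.00538), a bromodomain subunit of a BAF complex, was called. Of 313 Zfp zinc finger genes 4 were called higher, where 0.813% of all tested genes were. Such single or few calls are not read as results about these classes. Of the 4, Zfp57 had the smallest adjusted p (0.36, adjusted p = 0.000875). Zfp57 binds imprinted control regions. Its levels were 50.3, 51.7 and 56.8 CPM in Veh and 68.5, 70.9 and 64.8 CPM in OCY-EV+ANTA-NC.

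Lipid and energy lists held 3 calls, all lower. These lists leave out the desaturase gene Scd3, which was called higher (0.35, adjusted p = 0.00334). Scd3 is mentioned here with its level already known, and its reads may not be fully separated from those of Scd1 and Scd2. Glycolysis genes had a median of -0.075, with 17 of 18 negative and 13 of 18 wholly below Veh, as 10.3% of all tested genes were. Of these 18 genes Pkm and Aldoa were called lower, each at -0.12 (adjusted p = 0.0132 and 0.0300), and both were lost with the GC and length trend removed. Pkm was also lost without Veh 2, Veh 3 or OCY-EV+ANTA-NC 2 or 3, and Aldoa without any Veh library or OCY-EV+ANTA-NC 1 or 2. Pkm also shares 15.3% of its exon bases with a gene on the same strand. In the TCA cycle Suclg1, a subunit of succinyl-CoA ligase, was called among 20 genes, at 114, 109 and 120 CPM in Veh and 98.6, 101 and 100 CPM in OCY-EV+ANTA-NC (log2 fold change -0.19, SE 0.044, adjusted p = 0.0388). Its call was lost without any of the 6 libraries compared and without OCY-EV+ANTA 2.

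No gene was called in fatty acid synthesis (17 tested, median -0.071), cholesterol synthesis and LDL uptake (24, median -0.073), fatty acid oxidation (22, median -0.050) or fatty acid uptake and lipid droplets (24, median -0.017). Scd1, a desaturase of fatty acid synthesis, stood at 1673, 1673 and 1752 CPM in Veh and at 1534, 1608 and 1599 CPM in OCY-EV+ANTA-NC (log2 fold change -0.10, adjusted p = 0.0689). Srebf2, the main regulator of cholesterol synthesis genes, gave -0.11 (adjusted p = 0.0678) and Pnpla2, the lipase of lipid droplets, gave -0.11 (adjusted p = 0.249). Nuclear respiratory chain genes (80 tested, median -0.061) and mitochondrial DNA transcripts (12 tested, median -0.067) gave no call. With the GC and length trend removed, the median of the mitochondrial DNA transcripts, whose GC content is low at 37.4%, was -0.133 and mt-Co1, a cytochrome oxidase subunit, was called lower. Among 26 genes of the NRF2 response and iron storage, the ferritin gene Ftl1 was called lower (-0.23, adjusted p = 0.0442), with an opposite-strand overlap of 26.5%. It was lost without Veh 2 or 3, any OCY-EV+ANTA-NC library or OCY-EV+ANTA 2 or 3, and with the GC and length trend removed. Lists for inflammation, the acute phase, interferon, the integrated stress response, p53, endoplasmic reticulum chaperones, the proteasome, autophagy and vesicle uptake held no call.

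By the rule for the largest changes, which asked for a call also with the GC and length trend removed, the rises outside the lists were Aire, Clca1, Spaca6, Ccdc28a, Gabre and Phka2, at 0.41 to 0.61, and the falls were Fam13a, Suclg1, Rpl39, Rpl4 and Eef1a1. Phka2, a regulatory subunit of phosphorylase kinase, which controls glycogen breakdown, stood at 82.8, 87.0 and 93.3 CPM in Veh and at 107, 119 and 122 CPM in OCY-EV+ANTA-NC (log2 fold change 0.41, SE 0.066, adjusted p = 0.00250). Aire, a regulator of antigen display in the thymus, was low, at 8.31 to 10.1 CPM in Veh and 12.5 to 16.1 CPM in OCY-EV+ANTA-NC. Among called genes Fam13a had the largest fall, from 33.6, 33.1 and 31.9 CPM to 28.6, 27.3 and 25.7 CPM (log2 fold change -0.27, SE 0.062, adjusted p = 0.0312). Phka2 and Spaca6 stayed called without any single library. Calls were lost for Aire without Veh 1, Veh 3 or OCY-EV+ANTA-NC 2, for Ccdc28a without Veh 2, Veh 3 or OCY-EV+ANTA-NC 1, and for Gabre without Veh 1 or OCY-EV+ANTA-NC 2 or 3. Of the 6 libraries compared, Clca1 was lost without any but OCY-EV+ANTA-NC 2 and Fam13a without any but OCY-EV+ANTA-NC 1.

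Genes with an 8-base match to the miR-483-5p seed in an annotated 3′ UTR were read next. Of 46 such genes tested, 1 was called higher and 0 lower, with a median of -0.005, and the genes without the site had the same median. Of 7 tested genes reported as targets of this microRNA none was called, at a median of -0.055.

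GC content moved with the comparison. When tested genes were put into 5 equal groups by the GC content of the longest annotated transcript, the higher calls numbered 62, 22, 6, 2 and 2 from the lowest group (median 41.1%) to the highest (57.7%), and the lower calls 0, 3, 6, 5 and 10. The median fold changes of the 5 groups were 0.047, 0.012, -0.016, -0.034 and -0.045. Each same-number difference between libraries gave nearly these values, for example 0.051, 0.041 and 0.051 in the lowest group. The higher calls had a median GC content of 41.9%, the lower calls 53.9% and all tested genes 49.6%. By the gene lengths recovered from the deposited FPKM, which are not transcript lengths, the higher calls were longer (median 6924 bases) than the lower ones (2185 bases).

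Slopes on GC content were fitted to each library's log2 deviation from the gene mean over the 6 libraries. Per 10 percentage points of GC they were 0.003, 0.026 and 0.049 in Veh 1 to 3. In OCY-EV+ANTA-NC 1 to 3 they were -0.053, -0.019 and -0.006. Because of this centring only differences between libraries have meaning, not the sign of a slope. All 3 values of one group lay above all of the other. The difference was -0.052, with p = 0.1 in a two-sided exact permutation test, which is the smallest p that 3 libraries against 3 allow. Whether the GC trend comes from the treatment or from library preparation was not tested.

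Once each library's trend on GC content and on that gene length was removed, 46 genes (0.398%) were higher and 11 (0.0951%) lower. Of the 118 calls, 48 remained with the same direction, 43 higher and 5 lower. Among the 37 SR and SR-related genes 11 were still called higher and the median was 0.154. SR proteins kept all 4 calls, and their median went from 0.192 to 0.156. The SR genes themselves are low in GC, with a median of 43.9% over the 37. Ribosomal proteins had 5 lower calls, of which Rpl4 and Rpl39 were among the 8 called before and Rpl5, Rps20 and Rps27a were not, and a median of -0.064, at a GC content of 51.0%. The Zfp genes, at a GC content of 43.6%, went from 4 calls to 1 and from a median of 0.046 to 0.018, and the mitosis genes from 0.221 to 0.205.

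**Figure D3:**
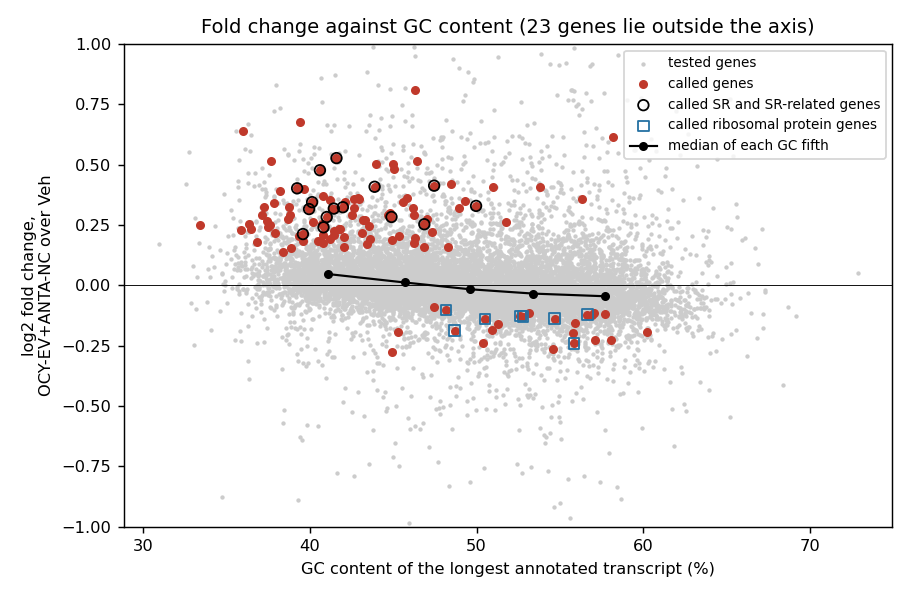
Log2 fold change of each tested gene (y axis) against the GC content of its longest annotated transcript (x axis, %). Red points are called genes, black rings the called SR and SR-related genes, blue squares the called ribosomal protein genes, and the black line joins the medians of the 5 GC groups, from 0.047 to -0.045. 23 genes lie outside the axis.

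Library number also moved with expression. In a fit of all 9 libraries with the library number as a term, 311 genes were called for library number and 522 for the group. Of the calls of the main fit, 14 were also called for library number. The main fit has no such term, so this variation stays in its spread. The first principal component of the 6 libraries (26.5% of the variance) placed the libraries numbered 1 at 12 and 13.7 and the other 4 at -9.4 to -3.0. The second (23.5%) placed Veh at 3.0 to 12.5 and OCY-EV+ANTA-NC at -9.1 to -6.8. Immediate early genes, which respond fast to serum and stress, summed to 1199, 1946 and 1839 CPM in Veh 1 to 3 and to 1169, 2185 and 1719 CPM in OCY-EV+ANTA-NC 1 to 3. Replication-dependent histones summed to 135, 282 and 295 CPM and to 131, 287 and 248 CPM. In both classes the library numbered 1 was the lowest of each group, and neither held a call between the groups (20 and 18 tested). The labels do not say what a library number stands for.

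In differences between libraries of the same number, in which a shift shared by that number cancels, the medians were 0.196, 0.215 and 0.165 for SR proteins and 0.146, 0.149 and 0.220 for SR-related genes. For mitosis genes the values spread more, 0.278, 0.113 and 0.246. Calls that held after leaving out any single library numbered 31, all of them higher, and 0 of the lower calls did.

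**Figure D4:**
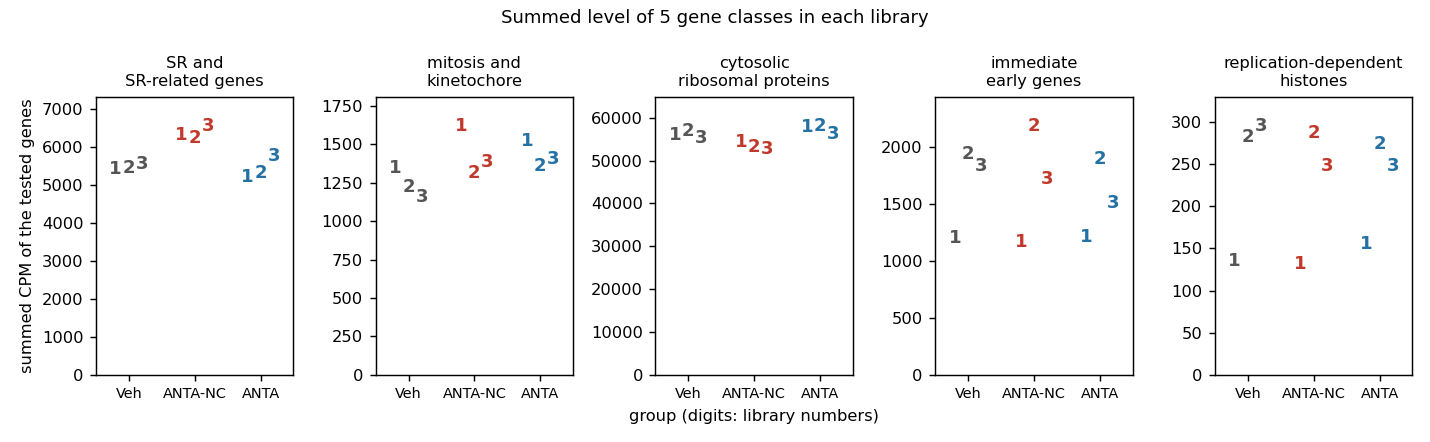
Summed CPM of the tested genes of 5 classes (y axes, from 0) in each library, by group on the x axis, with library numbers as symbols. SR and SR-related genes separate OCY-EV+ANTA-NC (6236 to 6542 CPM) from Veh (5423 to 5547 CPM), whereas immediate early genes and histones separate library 1 from 2 and 3 in each group.

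The promoter windows of RefSeq, 250 bases before to 50 after the start, were available for 13 of the 15 called SR and SR-related genes. The GC box was found in 92.3% of them, the CCAAT box in 53.8%, the ETS core in 30.8% and the TATA box in 7.69%, against 69.4%, 43.5%, 21.3% and 8.41% of 9121 tested genes with a window. The CHR element was in 0 of the 13, in 76.7% of 30 mitosis genes and in 14.5% of all. Ribosomal protein genes with a window numbered 60, of which 41.7% held the ETS core and 30.0% the CCAAT box. These are matches of letters and say nothing of binding.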

How the data were processed

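RNA-seq of 9 AML12 libraries, 3 per group, was analysed, and 6 of them form the comparison. The authors deposited raw read counts per gene and FPKM per gene for each library. Reads were counted with HTSeq on mm10, per the submitters' processing notes, whereas an aligner, annotation, versions and strand setting were not given in those sources. The deposited FPKM served only to recover gene lengths and to check the counts: for all 16770 genes with a count it gave 1 whole length within 0.001 base. Of 21959 gene identifiers 21851 matched GENCODE M21 (GRCm38), which gave coordinates and GC content.

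Counts were fitted with edgeR 4.0.16 in R 4.3.3. Genes passed filterByExpr (smallest count 10, smallest total 15), libraries were scaled by TMM, and all 9 entered 1 model with a coefficient per group, at a common biological variation of 4.63%. Benjamini-Hochberg adjusted p under 0.05 made a call. SE is the log2 fold change over the root of F. Trends on GC content and length were fitted per library with mgcv 1.9.3 and used as offsets. DESeq2 1.42.0 was an alternative. The edgeR fits were also run on counts simulated without an effect of library number, and the outcome is not given here. Classes are described by counts and medians without a set test. The comparison, the members and the lists were chosen with earlier results of these data known, and 1 list after its values were seen. Named genes were the 12 largest rises and falls among calls that also held with the GC and length trend removed and with the library number as a term, with separate groups and a mean of at least 5 CPM and without predicted genes, up to 3 calls per list (or 2 values where none was called), and any tested SR or SR-related gene. Others named are said to be chosen after their values were seen, are markers, or were given as further members of a list. Such further members, among them Clk1, Clk4, mt-Co1 and ribosomal protein genes such as Rpl14, lay outside this rule and were named with their values known.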

Additional observations from a re-analysis of the deposited data

How the results depend on the processing

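All 3 counts kept within 1.5 times their value with DESeq2 size factors (98 higher, 22 lower), with DESeq2 itself (133 and 36) and with the libraries numbered 2 and 3 alone (139 and 29, added after seeing the data). With library size alone the higher and lower calls were 157 and 6. Without the filter on low counts 335 genes were called (242 and 93), and with the 6 compared libraries alone 185 (148 and 37). Removal of the GC and length trend left 57 (46 and 11), and removal of the GC trend alone 48 (41 and 7). Leaving out 1 library gave 43 to 181 calls, 40 to 149 of them higher and 2 to 32 lower. The cause of these shifts was not tested. The GC slope difference lay between -0.063 and -0.033 in all alternatives. Of 46 named calls, 46 stayed called with DESeq2 size factors, 28 with the GC and length trend removed and 22 to 46 without 1 library, and none changed sign.

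The replicate block gave 522 calls (312 and 210), and 327 (193 and 134) with the GC and length trend also removed. Same-number libraries of Veh and OCY-EV+ANTA-NC deviated together with correlations of 0.194, 0.0765 and 0.0375, so the numbers were not taken to pair the samples, and 3 of 6 libraries correlated best with their own number. Under the block 24 SR and SR-related genes, 26 ribosomal protein genes (lower) and 18 mitosis genes were called.

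Among named genes, signs changed only in those without a call. Leaving out 1 library, the log2 fold change ran from -0.35 to 0.274 in Col1a1, -0.032 to 0.108 in Cd14, -0.211 to 0.148 in Cd68, -0.236 to 0.233 in Stab2, -0.003 to 0.087 in Hnf4a and -0.034 to 0.278 in Alb. It ran from -0.073 to 0.005 in Srsf9, -0.005 to 0.104 in Srrm1, -0.009 to 0.037 in Scaf11, -0.020 to 0.056 in Snrnp70, -0.009 to 0.105 in Cwc22 and -0.066 to 0.033 in Cwc25. With GC and length removed Cd68 gave 0.010 and Ppig -0.004 (-0.004 with GC alone), and with the replicate block added 0.006 and -0.008, while the block alone gave Stab2 -0.020. The libraries numbered 2 and 3 gave Col1a1 0.498, Cd68 0.092, Srsf4 0.023, Srsf9 0.008, Thrap3 -0.014 and Snrnp70 -0.034.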

Other observations

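Several called genes with roles in RNA processing or growth control lay outside the lists and are named here after their values were seen. Ogt, the enzyme that adds O-GlcNAc to proteins and whose own transcript keeps a regulated intron, stood at 416, 395 and 406 CPM in Veh and at 520, 502 and 536 CPM in OCY-EV+ANTA-NC (log2 fold change 0.36, edgeR adjusted p = 0.000451). Tial1, an RNA-binding protein of stress granules, gave 0.32 (adjusted p = 0.00334), and Thoc2, a subunit of the complex that links transcription to RNA export, gave 0.24 (adjusted p = 0.00104). Tardbp (0.24, adjusted p = 0.0402), whose protein binds nascent RNA, was lost without Veh 2, Veh 3 or OCY-EV+ANTA-NC 1 or 3 and with the GC and length trend removed, and opposite-strand exons overlap 23.3% of its bases.

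Further higher calls outside the lists, also named after their values were seen, were Atr, Mdm4, Hltf and Scd3. Atr, a kinase activated by stalled replication, went from 46.3, 49.3 and 45.5 CPM to 65.5, 57.4 and 59.9 CPM (log2 fold change 0.37, adjusted p = 0.00175). Mdm4, an inhibitor of p53, went from 601, 619 and 630 CPM to 705, 760 and 769 CPM (log2 fold change 0.27, adjusted p = 0.00867), a call lost without OCY-EV+ANTA-NC 3, and Hltf, a helicase-like factor of replication fork repair, gave 0.32 (adjusted p = 0.000371). Scd3, a desaturase gene that resembles Scd1 and Scd2 closely, was higher (0.35, adjusted p = 0.00334). Scd1 and Scd2 gave -0.10 and -0.08 without a call. The Scd3 call held without any single library and with the GC and length trend removed (0.35, adjusted p = 0.00428). Reads of these copies may not be fully separated.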
